A study of Gallus gallus with 6 samples.

Results

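OCX36 and WFDC2 are secreted proteins of the oviduct that belong to families known for defence against microbes, and their mRNA levels were compared in the uterus of layers and non-layers. The members were taken by gene name from the authors' table of differentially expressed genes, and they are 2 of the 19152 genes counted and 2 of the 616 genes in that table. That table was made with DESeq2 from the libraries used here and holds only genes that passed its thresholds, so the difference between the groups chose both genes and is not independent evidence of its direction. The layers were 3 Hy-line hens of 35 weeks in lay at more than 80% production, sampled 15 to 20 h post-ovulation with an egg in the uterus. The non-layers were 3 Hy-line hens labelled 35 to 60 weeks old that were not laying and had no growing follicles. Both groups share the strain and received no treatment, and each hen gave 1 library of poly-A RNA from frozen uterine tissue. The hour of each layer and the age of each non-layer are not given in the sources used here, so laying status and age cannot be told apart for every hen.

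The uterus, or shell gland, is the segment of the hen's oviduct in which the egg receives its mineral shell. Its lining also secretes the organic matrix of the shell and proteins that act on bacteria. OCX36, ovocalyxin-36, is a matrix protein of the chicken eggshell and shell membranes with a BPI fold, the fold of mammalian proteins that bind bacterial lipopolysaccharide. WFDC2 is a small protein with WAP domains, which in mammals is secreted by the epithelium of the airways and the reproductive tract. Other WAP domain proteins of mammals inhibit proteases, and some of them act on bacteria.

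The counts assigned to genes summed to between 14756666 and 20333103 per library. Of 13317 genes tested with edgeR's quasi-likelihood test, 249 (1.87%) were differentially expressed genes (DEGs), defined by a Benjamini-Hochberg adjusted p below 0.05 and at least a 2-fold change. Of the DEGs, 120 (0.901% of the genes tested) were higher and 129 (0.969%) were lower in layers. With scaling by library size alone, 103 genes were higher and 678 lower, and the median gene had a log2 fold change of -0.33 in place of 0.01. The number of DEGs depended on single libraries, with 41 without layer 1, 2 without layer 2, 1 without non-layer 2 and 0 without non-layer 1, where 1704 genes had an unadjusted p below 0.05 by edgeR. In RNA from bulk tissue, fewer cells of a type and less RNA per cell cannot be told apart.

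OCX36 was far higher in every layer than in any non-layer, but by amounts that differed widely between the layers. The gene has the identifier ENSGALG00000006662 and lies on the plus strand of chromosome 20 from 10489102 to 10497142 in Galgal 5.0, with 2 transcripts and 2035 bases of exon. Its level, in reads per kilobase of exon scaled to the library's gene counts (RPKM), was 2318, 7443 and 548 in layers 1, 2 and 3, against 93.6, 139 and 28.0 in non-layers 1, 2 and 3. Layer 2 was the highest and layer 3 the lowest of the layers, and the groups did not overlap. Layers 1, 2 and 3 held 82191, 244512 and 21718 counts of the gene and non-layers 1, 2 and 3 held 2707, 5070 and 895, so counting error was small beside the spread between hens. By its share of all gene counts, OCX36 took 1.46% in layer 2 (Wilson 95% interval 1.45% to 1.47%), 0.455% in layer 1 (0.452% to 0.458%) and 0.107% in layer 3 (0.105% to 0.108%). In non-layers the share was between 0.00549% and 0.0271%. Without molecular identifiers such intervals describe the counting error alone.

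On the RPKM scale, OCX36 was the gene with the 10th highest level in layer 2, the 18th in layer 1 and the 179th in layer 3. In the non-layers it ranked 964th, 597th and 4139th. Its mean RPKM was 3436 ± 3581 (SD, n = 3) in layers and 86.8 ± 55.7 (SD, n = 3) in non-layers, so that the SD of the layers was about the size of their mean. In CPM, the counts scaled by TMM to a common library size, the mean was 7697 ± 8259 (SD, n = 3) in layers and 154 ± 102 (SD, n = 3) in non-layers. Layer 2 alone held 73.6% of the summed CPM of the layers, layer 1 held 21.1% and layer 3 held 5.29%.

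The log2 fold change of OCX36 CPM between layers and non-layers was 5.64 (SE 1.12), or 50.01-fold, with an adjusted p of 0.053 by edgeR, and the gene was therefore not a DEG. Its fold change was the 6th largest of the 13317 tested, while its unadjusted p of 0.0013 by edgeR ranked 329th, where 20.3% of the genes had an unadjusted p below 0.05. A 2-sided exact permutation test on log2 CPM gave p = 0.1, the smallest value that 3 against 3 libraries allow. The call depended on the processing. It passed under DESeq2 (adjusted p 5.9e-06 by DESeq2), which called 6.8% of the genes in either direction, and without layer 3 (log2 fold change 6.16, adjusted p 0.039 by edgeR), and without layer 2 the fold was 19.8 (log2 fold change 4.30, adjusted p 0.11 by edgeR).

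WFDC2 was also higher in every layer than in any non-layer, by a smaller amount, and the library that stood out was a different one. The gene, ENSGALG00000031164, lies on the plus strand of chromosome 20 from 10684937 to 10686040 in Galgal 5.0, with 1 transcript and 375 bases of exon. Its RPKM was 95.6, 139.8 and 404 in layers 1, 2 and 3 and 67.8, 60.5 and 79.5 in non-layers 1, 2 and 3. Layer 3, the layer with the least OCX36, had the most WFDC2, while layers 1 and 2 were much nearer to the non-layers. The groups did not overlap, and the lowest layer was 1.52-fold above the highest non-layer in CPM. For OCX36 the same distance was 4.88-fold. Non-overlapping groups with the layers higher were found for 1610 of the 13317 genes tested (12.1%), so this property by itself did not set the members apart.

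These levels rested on 648, 878 and 3077 counts for layers 1, 2 and 3 and on 375, 424 and 486 counts for non-layers 1, 2 and 3. Its share of all gene counts was 0.0151% in layer 3 (Wilson 95% interval 0.0146% to 0.0157%), against 0.00359% (0.00332% to 0.00387%) in layer 1 and 0.00524% (0.00491% to 0.00560%) in layer 2. The mean CPM was 90.8 ± 72.0 (SD, n = 3) in layers and 23.0 ± 2.23 (SD, n = 3) in non-layers. The non-layers thus lay close together, and layer 3 held 63.5% of the summed CPM of the layers.

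The log2 fold change of WFDC2 CPM was 1.98 (SE 0.52), or 3.94-fold, with an adjusted p of 0.10 by edgeR, so WFDC2 was not a DEG. It ranked 155th of 13317 by fold change. The 2-sided exact permutation test on log2 CPM gave p = 0.1, again the smallest possible value. DESeq2 called the gene (adjusted p 0.0020 by DESeq2), as it did 6.8% of the genes in either direction. The authors' DESeq2 call on the same libraries had chosen WFDC2, so this is not a second result. Without layer 3 the fold was 2.17 (log2 fold change 1.12, adjusted p 0.066 by edgeR), so 1 library carried much of the size of the difference.

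**Figure D1:**
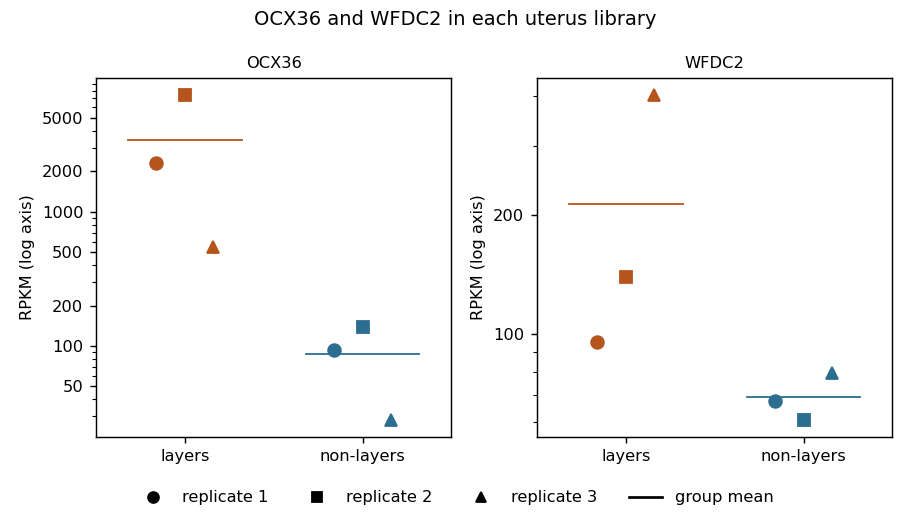
RPKM of OCX36 and WFDC2 (log axis, a separate scale for each gene) in the 3 layers and 3 non-layers, with a symbol for each replicate number and a line at each group mean. OCX36 spans 548 to 7443 RPKM in layers and 28.0 to 139 in non-layers, and WFDC2 spans 95.6 to 404 in layers and 60.5 to 79.5 in non-layers, with layer 3 lowest for OCX36 and highest for WFDC2.

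**Figure D2:**
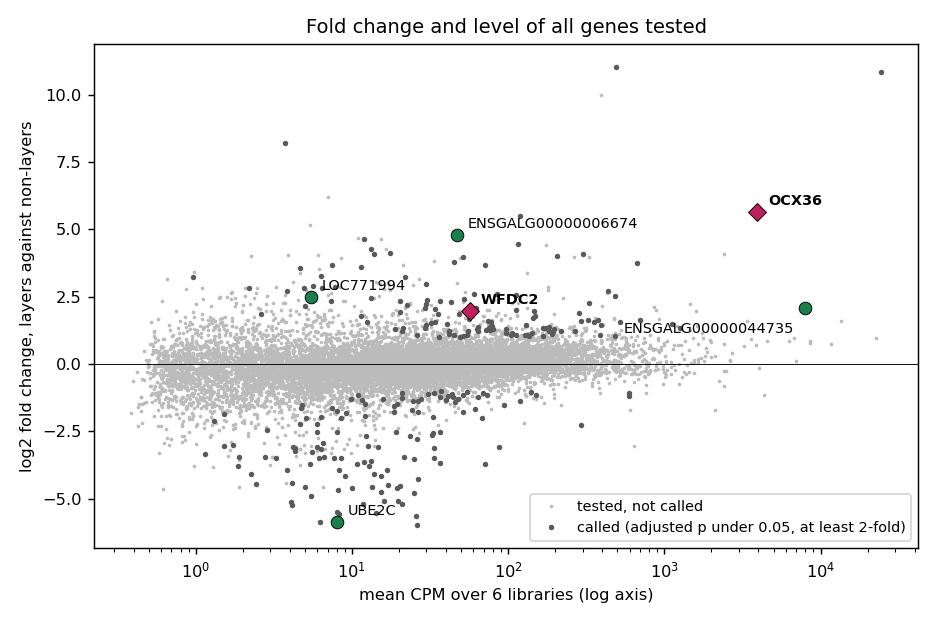
Log2 fold change of CPM, layers against non-layers, against mean CPM (log axis) for the 13317 genes tested. Diamonds mark OCX36 (5.64) and WFDC2 (1.98), green circles mark the genes within 50 kb of them, and darker points are the 249 DEGs; OCX36 lies far above most genes of its level.

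**Figure D3:**
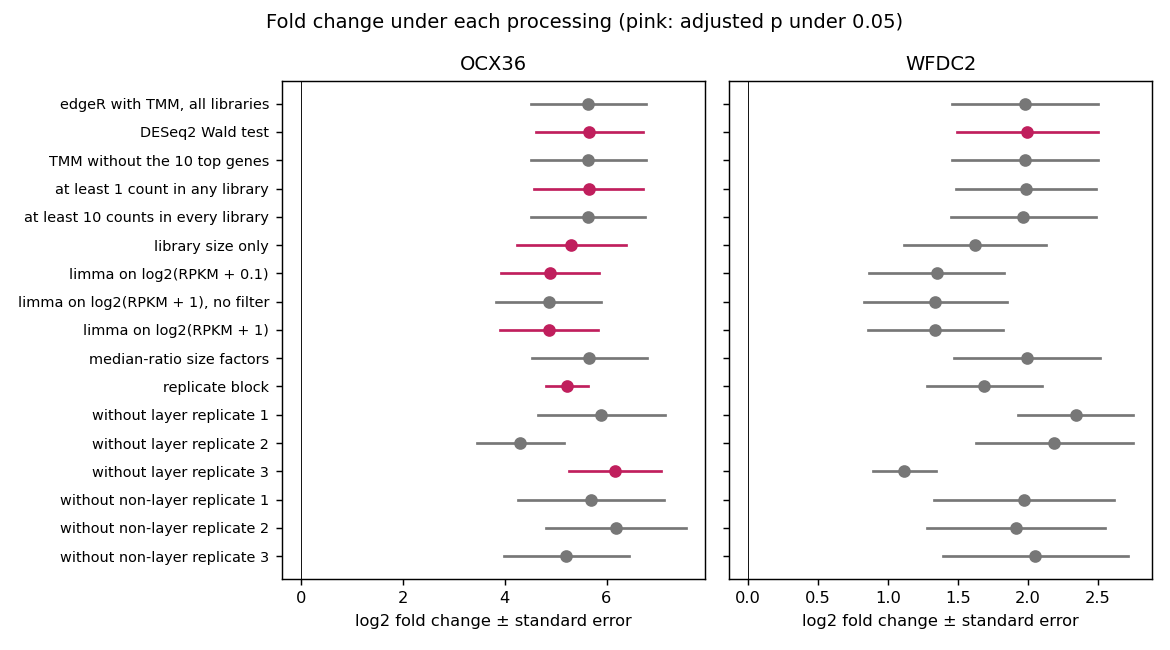
Log2 fold change of OCX36 and WFDC2, layers against non-layers, with its standard error under the edgeR test and each alternative, where pink marks an adjusted p below 0.05. OCX36 stays between 4.30 and 6.18 and WFDC2 between 1.12 and 2.34.

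Because RPKM is a level per length, the members could be compared with each other in each hen. The ratio of OCX36 to WFDC2 RPKM was 24.2, 53.2 and 1.36 in layers 1, 2 and 3 and 1.38, 2.29 and 0.352 in non-layers 1, 2 and 3. Layers 1 and 2 had a large excess of OCX36, whereas layer 3 had nearly as much WFDC2 as OCX36 and lay within the range of the non-layers. On the log2 scale the mean ratio was 3.59 ± 2.79 (SD, n = 3) in layers and 0.05 ± 1.40 (SD, n = 3) in non-layers. The difference was 3.54, or 11.6-fold, and the test did not separate the groups (2-sided exact permutation test p = 0.3, smallest possible 0.1).

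The uneven levels among layers were unusual in size for OCX36. The SD of log2(CPM + 0.5) over the layers was 1.90 for OCX36, at percentile 99.6 of the genes tested, and 1.10 for WFDC2, at percentile 96.1. The median gene had an SD of 0.31 among layers. The highest layer exceeded the lowest 13.9-fold for OCX36 and 4.50-fold for WFDC2 in CPM. Among non-layers the members parted: OCX36 was as uneven for that group, with an SD of 1.25 (percentile 98.9) and a range of 5.35-fold, while WFDC2 was even, with an SD of 0.14 (percentile 31.4) and a range of 1.21-fold. Of the 13317 genes tested, 57 had a wider spread among layers than OCX36 and 516 had a wider spread than WFDC2. Of the 2088 genes with a mean of at least 100 CPM, to which OCX36 but not WFDC2 belongs, 9 had a wider spread than OCX36. The spread is a description of 3 hens per group and was not tested.

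**Figure D4:**
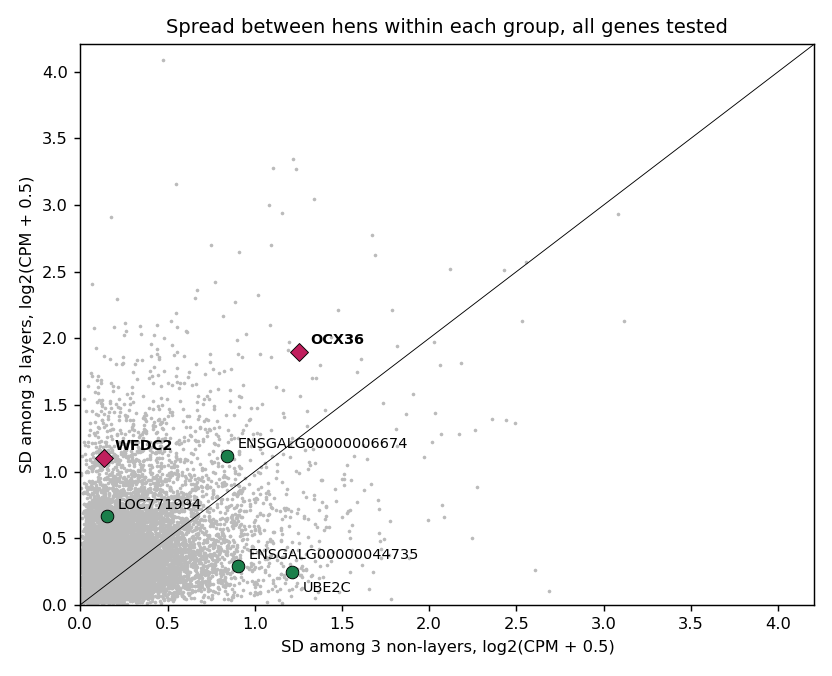
SD of log2(CPM + 0.5) among the 3 layers against that among the 3 non-layers for the 13317 genes tested, with the line of equal spread. OCX36 (1.90 and 1.25) is wide in both groups, whereas WFDC2 (1.10 and 0.14) is wide in layers and narrow in non-layers.

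The members lie on the same strand of chromosome 20 with 187794 bases between them. In the RefSeq annotation of a later assembly, GRCg7b, OCX36 is a synonym of BPIFB3, a name of the BPI fold family, and 15 protein-coding genes lie between BPIFB3 and WFDC2. Those genes were not matched to the Ensembl identifiers of the counts. Of the authors' table, 4 genes lie within 50 kb of a member, 1 beside OCX36 and 3 beside WFDC2. Like the members they were in the table because they had been called on these libraries. Of the 4, 2 rose and 1 fell in layers by edgeR, and the fourth did not pass the test. By the same rule, 0.901% of the 13317 genes tested rose and 0.969% fell. Among the 514 genes that the authors had called, that have a name and that were tested, 18.1% rose and 20.8% fell. Not all of the 4 neighbours have a name. Whether the locus departs from these shares was not tested.

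ENSGALG00000006674, a protein-coding gene with no name in the files, begins 7727 bases past the end of OCX36 on the same strand (10504870 to 10508991). Its RPKM was 67.5, 104 and 22.7 in layers 1, 2 and 3 and 2.73, 4.75 and 1.29 in non-layers 1, 2 and 3. The order of the hens was that of OCX36 in both groups, with replicate 2 highest and replicate 3 lowest. Its CPM rose in layers by 4.78 on the log2 scale (SE 0.71, 27.4-fold, adjusted p 0.033 by edgeR). The call was lost when any library but layer 3 was left out, with log2 fold changes from 4.21 to 5.37 and adjusted p between 0.051 and 0.17 by edgeR. OCX36 exceeded this neighbour in RPKM by 34.3-, 71.8- and 24.1-fold in the layers and by 34.2-, 29.2- and 21.7-fold in the non-layers, so the ratio varied less between hens than either level did. How reads past the end of OCX36 were assigned is not given in the sources used here.

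ENSGALG00000044735, listed as a lincRNA, lies on the minus strand 5107 bases before the start of WFDC2 (10677567 to 10679829). Its RPKM was 11872, 13514 and 16659 in layers 1, 2 and 3 and 3056, 2052 and 7568 in non-layers 1, 2 and 3. It ranked 3rd in layer 3 and 8th in both other layers by RPKM, and took between 0.963% and 1.35% of the gene counts of a layer, and so it was more abundant per length than OCX36 in every library. The order of the hens was that of WFDC2 in both groups, and non-layer 3 stood apart from the other non-layers. For WFDC2 the Wilson interval of non-layer 1 overlapped those of non-layers 2 and 3, so its order in that group is uncertain. Its log2 fold change in CPM was 2.09 (SE 0.47, 4.27-fold, adjusted p 0.070 by edgeR) with all libraries and 2.76 (adjusted p 0.012 by edgeR) without non-layer 3.

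LOC771994 lies on the minus strand 14512 bases past the end of WFDC2 (10700553 to 10702590). Its RPKM was 6.55, 6.79 and 15.04 in layers 1, 2 and 3 and 2.03, 1.85 and 2.61 in non-layers 1, 2 and 3. Layer 3 was again the highest, with 266 counts against 103 and 99 in layers 1 and 2. By RPKM the order of the hens was that of WFDC2 in both groups. Only the place of layer 3 was beyond counting error. Wilson intervals of the share of gene counts overlapped between layers 1 and 2. They also overlapped among all non-layers, which held 26, 30 and 37 counts. The match of the remaining order is therefore not evidence of a link, and how many genes share it was not counted. LOC771994 rose by 2.48 on the log2 scale (SE 0.43, 5.58-fold, adjusted p 0.037 by edgeR), and this call was also lost when any library but layer 3 was left out (adjusted p 0.068 to 0.20 by edgeR). WFDC2 exceeded it in RPKM by 14.6-, 20.6- and 26.8-fold in the layers and by 33.5-, 32.8- and 30.5-fold in the non-layers.

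The gene with the symbol UBE2C in the authors' table (ENSGALG00000026380) lies on the plus strand 23397 bases past the end of WFDC2 (10709438 to 10710435) and moved the other way. The same table describes it as the ubiquitin-conjugating enzyme E2 U, and the RefSeq order near WFDC2 holds UBE2U and no UBE2C, so the identity behind the symbol is uncertain. Its RPKM was 0.550, 0.203 and 0.977 in layers 1, 2 and 3 and 42.0, 48.8 and 10.8 in non-layers 1, 2 and 3. The layers held only 4, 2 and 7 counts, against 290, 503 and 89 in the non-layers. UBE2C fell by 5.87 on the log2 scale (SE 0.77, 58.4-fold lower, adjusted p 0.029 by edgeR), and the call was lost without layer 1, layer 2, non-layer 1 or non-layer 2 (adjusted p 0.075 to 0.13 by edgeR). The genes near WFDC2 therefore did not share 1 direction.

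**Figure D5:**
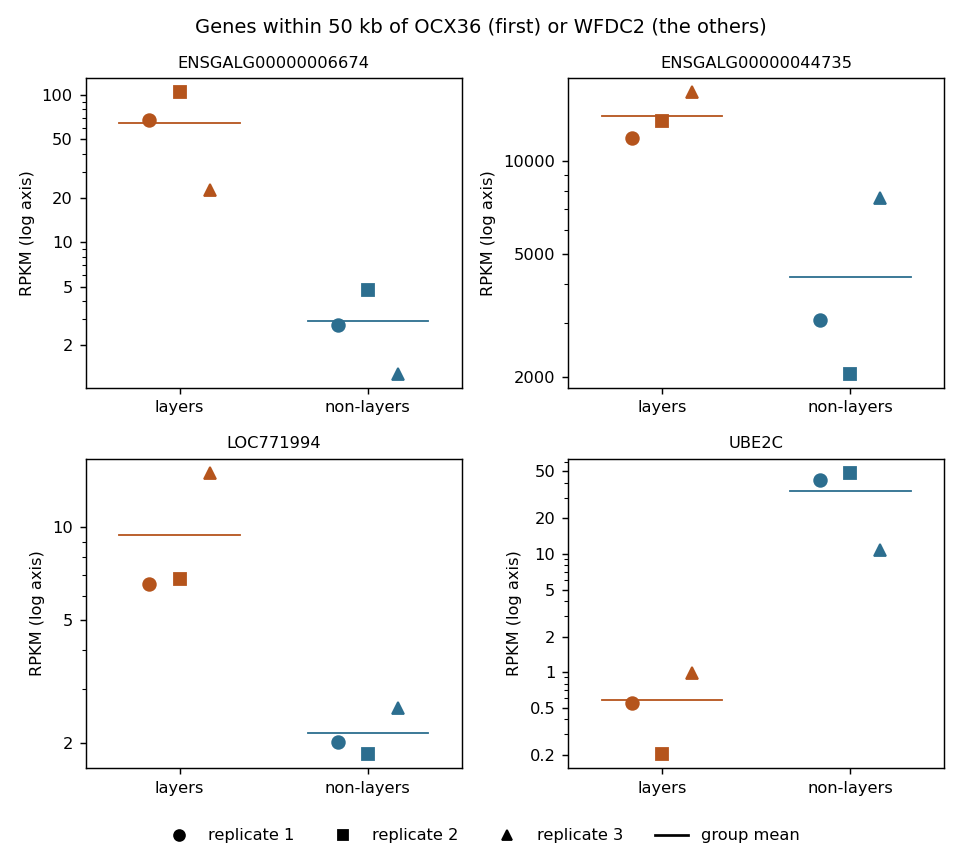
RPKM (log axis) of the 4 genes of the authors' table within 50 kb of OCX36 or WFDC2 in each library, with a line at each group mean. ENSGALG00000006674 follows the order of OCX36 (22.7 to 104 in layers), ENSGALG00000044735 and LOC771994 are highest in layer 3 as WFDC2 is, and UBE2C is near 0 in layers and 10.8 to 48.8 in non-layers.

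Over the 6 libraries, the log2 CPM of OCX36 and WFDC2 had a Pearson correlation of 0.53. The genes most like OCX36 by correlation among 12745 others were ENSGALG00000010166 (0.997) and ENSGALG00000015078 (0.996), which have no name. Their CPM was only 1.90- and 1.44-fold higher in layers (adjusted p 0.054 and 0.18 by edgeR). The highest layer exceeded the lowest by 1.45- and 1.35-fold, so they shared the order of the hens with OCX36 but not the size of its changes. Genes with a name had been called by the authors and so were filtered on the group difference, and the first of them were NGEF in place 11 (0.988), SEL1L in place 15 (0.986) and FAM114A1 in place 16 (0.986). SEL1L, a part of the machinery that removes misfolded proteins from the endoplasmic reticulum, had an RPKM of 63.5, 98.9 and 39.9 in layers 1, 2 and 3 and of 19.7 to 23.3 in non-layers. NGEF, a guanine nucleotide exchange factor, had 5.55, 9.98 and 2.66 in layers and 1.17 to 1.64 in non-layers. ENSGALG00000006674, the neighbour of OCX36, stood 9th with 0.990.

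For WFDC2 the genes most alike by correlation were ENSGALG00000035134 (0.997) and ENSGALG00000021174 (0.995), again without a name. Their CPM differed little between the groups, at 1.19-fold and 1.31-fold (adjusted p 0.50 and 0.23 by edgeR). A correlation takes no account of the size of a change. The first with a name, under the same filter, were ATP8B3 in place 42 (0.976), RLN1 in place 54 (0.972) and TUBA4A in place 59 (0.969), so many genes without a name were more like WFDC2. RLN1, a relaxin hormone, had an RPKM of 2.87, 4.23 and 15.9 in layers 1, 2 and 3 and of 0.240 to 1.23 in non-layers. ATP8B3, a lipid-transporting ATPase of the membrane, had 5.91, 5.15 and 16.9 in layers and 2.57 to 4.04 in non-layers. LOC771994 stood 131st with 0.953. With only 6 libraries in 2 groups high values were common: 393 genes (3.08%) reached 0.9 with OCX36 and 431 (3.38%) with WFDC2, and all pairs share the same libraries and scaling.

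The members were then set beside other secreted proteins of the oviduct, for which names were at hand only where the authors had called the gene at 2-fold or more on these libraries. That selection sets the size of their changes, so the counts and medians of the lists describe the named genes and say nothing of a list as a whole. Of the 514 named genes of the authors' table that were tested, 93 (18.1%) rose and 107 (20.8%) fell by edgeR, and those with a higher level in layers had a median log2 fold change of 1.74. OCX36 was the 1 named gene of 14 in the BPI fold list and WFDC2 the 1 of 9 in the WAP domain list. Of 36 other secreted defence proteins 6 were named, of which 3 rose, 0 fell and 3 did not pass the test, with a median log2 fold change of 1.81, where all genes tested, not selected in this way, had 0.01. LYZ, the lysozyme of egg white that cleaves bacterial cell walls, rose by 3.61 on the log2 scale (SE 0.48, adjusted p 0.030 by edgeR). EXFABP, an extracellular fatty acid binding protein that in the chicken binds bacterial siderophores, rose by 1.66 (SE 0.30, adjusted p 0.042 by edgeR), and MELTF, an iron-binding relative of transferrin, by 1.30. WFDC2, with 1.98, lay among these log2 fold changes and OCX36, with 5.64, above them.

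The defence proteins did not share the order of the layers. OvoDA3, an avian ovodefensin, had an RPKM of 2.46, 17.1 and 12.1 in layers 1, 2 and 3 and of 0.739 to 2.99 in non-layers, with overlapping groups and a log2 fold change of 2.84 (adjusted p 0.12 by edgeR). MASP2, a protease of the complement system, had a log2 fold change of 1.96 (adjusted p 0.096 by edgeR). PTX3, a soluble pattern recognition protein, was the 1 gene of the 6 with a lower level in layers, at a log2 fold change of -1.66 (adjusted p 0.098 by edgeR). LYZ had 18.4, 45.1 and 32.2 RPKM in the layers and 2.005 to 4.67 in the non-layers, with layer 2 highest as for OCX36 but layer 1 lowest.

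Of 15 secreted protease inhibitors, the function known for other WAP domain proteins, 5 were named in the same way, of which 3 rose and 0 fell, where 18.1% of the named genes and 0.901% of all genes rose. Their median log2 fold change was 1.31. OVST, the broad inhibitor ovostatin of egg white, rose by 2.55 on the log2 scale (adjusted p 0.045 by edgeR). SERPINF2, an inhibitor of plasmin, rose by 1.31 (adjusted p 0.024 by edgeR) and SPINT1, a Kunitz-type inhibitor of the epithelial surface, by 1.20 (adjusted p 0.035 by edgeR). CPAMD8 had a log2 fold change of 1.64 and PI15 one of -3.15, and neither passed. The inhibitors did not share the order of the layers. SPINT1 was, as WFDC2, highest in layer 3, with an RPKM of 116, 147 and 168 in layers 1, 2 and 3 and of 76.2 to 81.8 in non-layers. SERPINF2 was also highest in layer 3. OVST was highest in layer 2, with an RPKM of 19.5, 56.9 and 35.9 in layers 1, 2 and 3. CPAMD8 and PI15 were highest in layer 1 and lowest in layer 3.

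OCX36 was compared last with 15 proteins of the shell matrix, of which 5 were named and 4 rose, against the same 18.1% of named and 0.901% of all genes. Their median log2 fold change was 1.60, and as above the authors' calls chose these 5. MEPE, the matrix protein ovocleidin-116, had an RPKM of 18234, 16718 and 19365 in the layers, which differed by at most 1.14-fold in CPM. RARRES1, ovocalyxin-32, was similarly even at 1.06-fold, with a log2 fold change of 1.60 (adjusted p 0.050 by edgeR, not a DEG). SPP1, the phosphoprotein osteopontin, was as uneven as OCX36, with 1524, 444 and 108 RPKM in layers 1, 2 and 3, a range of 13.3-fold in CPM. Layer 3 was the lowest for both, but layer 1 was the highest for SPP1 and layer 2 for OCX36. The non-layers held only 6, 5 and 15 counts of SPP1, so its log2 fold change of 11.03 rests on few counts in that group. VTN, vitronectin, rose by 1.57 (adjusted p 0.047 by edgeR). The remaining gene of this list that rose, SERPINF2, is the one already counted among the protease inhibitors.

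Markers of other cell types were likewise named only where the authors had called them on these libraries, so that selection set the size of their changes. By edgeR, 18.1% of the named genes and 0.901% of all genes rose, and 20.8% and 0.969% fell. The part of these markers in the levels of OCX36 and WFDC2 was not tested. Of 12 leukocyte markers 5 were named, all lower in layers and 2 of them DEGs, with a summed CPM of 105 to 113 in layers and 221 to 284 in non-layers. Most of this sum was IRF8 alone, with a CPM of 93.5 to 94.7 in layers and 188 to 226 in non-layers. Of 10 markers of ciliated cells 6 were named, all lower in layers and 1 a DEG, with a summed CPM of 96.0 to 153 in layers and 266 to 359 in non-layers. Of 9 egg white genes of the magnum, the segment of the oviduct that makes egg white, OVST and LYZ were named and rose, with a summed CPM of 106 to 330 in layers and 22.8 to 44.8 in non-layers. HBBA, a globin and the 1 named of 8 markers of red blood cells, had a CPM of 82.2, 58.3 and 386 in layers 1, 2 and 3 and of 44.1 to 54.3 in non-layers. HBBA was not a DEG (log2 fold change 1.80, adjusted p 0.20 by edgeR). Layer 3 held the most HBBA and the most WFDC2, but also the most SPINT1 and LOC771994, and no link between these genes was tested. Of 9 shell gland markers, OCX36 among them, 5 were named, all were higher in layers and 3 were DEGs. MEPE, SPP1 and RARRES1 of these were already counted in the shell matrix list, and only OTOP2 was new. OVST and LYZ had likewise been counted above, as a protease inhibitor and a defence protein. Named members of these lists were detected in every library, and 0 of the markers of smooth muscle or heterophil granules were named.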

How the data were processed

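Uterine RNA of 3 layers and 3 non-layers was sequenced as single-end reads of 76 bases, and groups and replicate numbers were taken from the labels. Reads were cleaned with Prinseq at a Phred score of 30 and aligned to Galgal 5.0 in Array Studio; the gene counter, its strand setting and the annotation release are not given in the sources used here. From these alignments the authors deposited estimated counts, not normalized, for each Ensembl gene, of which 91.46% were whole numbers. The authors also deposited RPKM values per gene. In 1287 of 1287 values checked (genes with 1 transcript and at least 100 counts), the deposited RPKM matched the count divided by exon length and by the library's total of gene counts within 1%. Genes with more transcripts were outside this check, among them OCX36, ENSGALG00000044735 and UBE2C with 2 each. For OCX36 and ENSGALG00000044735 the deposited RPKM was above the value that count, exon length and library total give. So was that of UBE2C in every library but layer 2. The RPKM of MEPE, OVST and NGEF, which also have more than 1 transcript, was above that value too. Another table that the authors deposited lists 616 genes called by DESeq2 (at least 2-fold, q-value below 0.05), with a signed fold change score, p-values and q-values, group means of normalized counts (a signal without replicates), and annotation of other kinds (name, position, biotype). Of its columns only the annotation was used, but being in this table decided which genes could be members, neighbours or named genes of the lists. A name is given for 516 of the 616 genes.

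Counts were rounded and tested with edgeR 4.0.16 in R 4.3.3 (TMM, filterByExpr, quasi-likelihood F-test, no covariates, Benjamini-Hochberg adjustment over 13317 genes). Standard errors are the size of the log2 fold change over the square root of F. CPM are counts scaled by TMM to a common library size, and spread and likeness used log2(CPM + 0.5). Likeness was computed for genes with a mean of at least 1 CPM. Single values were tested with exact 2-sided permutation tests in scipy 1.17.1, and 3 such tests were made. Alternatives were DESeq2 1.42.0, limma 3.58.1 on log2(RPKM + 1) or log2(RPKM + 0.1), other scalings and filters, a replicate block, and leaving out each library. Each of the 3 fits was checked on simulated counts with known changes. The RefSeq table of GRCg7b matched 0 of the Ensembl identifiers, so it gave only the order of named genes.

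Genes named are the members, genes of the authors' table within 50 kb of them, named members of the lists of defence proteins, protease inhibitors, shell matrix and cell type markers, and the 5 genes most like each member with at most 2 without a name. The members and lists were chosen with earlier results of these data known. Each hen is 1 library, so p-values set a group difference against the variation between hens. Libraries of a group differed far beyond sampling noise in a chi-square test over genes (statistic per gene 13.4 to 155), so none was counted as a duplicate.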

Additional observations from a re-analysis of the deposited data

How the results depend on the processing

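OCX36 and WFDC2 were higher in layers under each of 16 alternatives, with log2 fold changes of 4.30 to 6.18 and 1.12 to 2.34, the same ranges as when each library was left out. The authors' DESeq2 call on these libraries had chosen both genes, and their groups did not overlap. Their direction and their DESeq2 calls here are therefore not independent evidence. OCX36 passed the threshold under DESeq2 (5.66), with genes of at least 1 count in any library (5.65), with scaling by library size only (5.31), and in limma on log2(RPKM + 0.1) (4.89) or log2(RPKM + 1) (4.87); WFDC2 passed under DESeq2 only (1.99). ENSGALG00000044735 passed under DESeq2 (2.12), and LOC771994 missed the threshold in limma without a filter (1.64). Leaving out each library gave log2 fold changes of 4.21 to 5.37 for ENSGALG00000006674, 1.78 to 2.76 for ENSGALG00000044735, 1.96 to 2.71 for LOC771994 and -6.31 to -5.38 for UBE2C, and the last could not be tested with at least 10 counts in every library.

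The number of DEGs was 904 under DESeq2, 781 with library size only (103 higher, 678 lower), 662 and 604 in limma with pseudocounts of 0.1 and 1 (90 and 86 higher), and 0 to 274 with 1 library left out. Only the fits with 1 library left out hold fewer samples. Of these, the fit without layer 3 gave 273 DEGs and that without non-layer 3 gave 274, against 249 with all libraries. The cause of these differences was not tested.

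With the replicate number as a block, 21 DEGs were left. Libraries with the same number did not deviate together (correlations of -0.24, 0.10 and -0.10). Those with different numbers had correlations of -0.18 to 0.24. These values gave no sign that the numbers pair the hens, but with 3 hens per group they cannot exclude it. In this block fit OCX36 passed (5.22, adjusted p 0.037 by edgeR), LOC771994 (2.38) and UBE2C (-5.57) did not pass, and no other call of a member or neighbour changed. Depth did not limit OCX36, whereas UBE2C rests on 2 to 7 counts in layers. With 3 hens per group, no 2-sided exact permutation test could reach p = 0.05.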

Other observations

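Of the 9 genes with a mean of at least 100 CPM and a wider spread among layers than OCX36, 0 have a name in the files. ENSGALG00000032282, chosen after its values were seen, had an RPKM of 584, 3542 and 77.2 in layers 1, 2 and 3 and of 121, 169 and 20.9 in non-layers 1, 2 and 3. In both groups replicate 2 was the highest and replicate 3 the lowest, as for OCX36, but the groups overlapped, since layer 3 lay below non-layers 1 and 2.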
